A study of Mus musculus with 9 samples.

Results

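Monocyte and macrophage marker genes were followed across treatments in leg muscle of mice. The 38 genes were taken by symbol from the deposited count table of 55335 genes, and cover infiltrating monocytes, macrophages in general and macrophages resident in tissue. All 38 were present and all 38 were among the 18259 genes that passed the filter on low counts. Leg muscle RNA was sequenced from 9 WT mice, of a strain labelled c57b6l, with 1 library per mouse. 3 mice received a peptide hydrogel combined with aspirin (Hydrogel), 3 received aspirin alone (Aspirin), and 3 were left untreated (Control). All 9 mice, the untreated ones too, went through a hindlimb model that the labels call both suspension and ischemia. Muscle without this model, or given hydrogel free of aspirin, was not analysed here, and the sources used here do not give age, sex, dose or time after the procedure. The RNA is from whole leg muscle, so fewer cells of a type and less RNA per cell cannot be told apart.

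Muscle holds resident macrophages between its fibres and around its vessels. After injury, monocytes leave the blood through the chemokine receptor Ccr2, clear debris as inflammatory macrophages, and are later replaced by or turn into macrophages of a repair type. Many of their surface receptors have no signalling tail of their own and signal through the adaptors Fcer1g and Tyrobp, whose tyrosine motifs (ITAMs) recruit the kinase Syk.

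Total counts per library ran from 32197791 to 48170537, and a gene with no count lies below 0.0553 to 0.1001 CPM (counts relative to the library size, scaled with the TMM method), a limit of 3 counts that covers counting error only. Mice of 1 group differed widely. Aspirin replicate 1 (Aspirin 1 below, and likewise for the others) held 22799 CPM over 12 muscle fibre genes, against 105453 to 324422 CPM in the other 8. Hydrogel 3 held the most, 324422 CPM. The sample codes in the labels begin with a number that no 2 groups share and that the sources used here do not explain, so what it marks cannot be told apart from treatment. Aspirin 3 carries another number than Aspirin 1 and Aspirin 2. Without Aspirin 3 the marker median described below was 1.30 for Aspirin against Control and -1.59 for Hydrogel against Aspirin.

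Summed over the 38 markers, the libraries held 1671, 2360 and 822 CPM in Hydrogel muscle, 4885, 4481 and 2052 CPM in Aspirin muscle and 1790, 961 and 3054 CPM in Control muscle, for replicates 1, 2 and 3 in this order, which is kept throughout. The 2 highest sums were Aspirin 1 and Aspirin 2, while Aspirin 3 lay below Control 3 and Hydrogel 2. Aspirin 1 was the highest of the 9 libraries for 26 of the 38 genes and Aspirin 2 for 9. Control 3 was highest for Gpnmb and Itgax, and Control 1 for Cx3cr1. Hydrogel 3 was the lowest library for 26 genes and Control 2 for 5. The muscle fibre sum was lowest in Aspirin 1 and highest in Hydrogel 3, the reverse of their places among the markers; its part in the results was not tested.

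**Figure D1:**
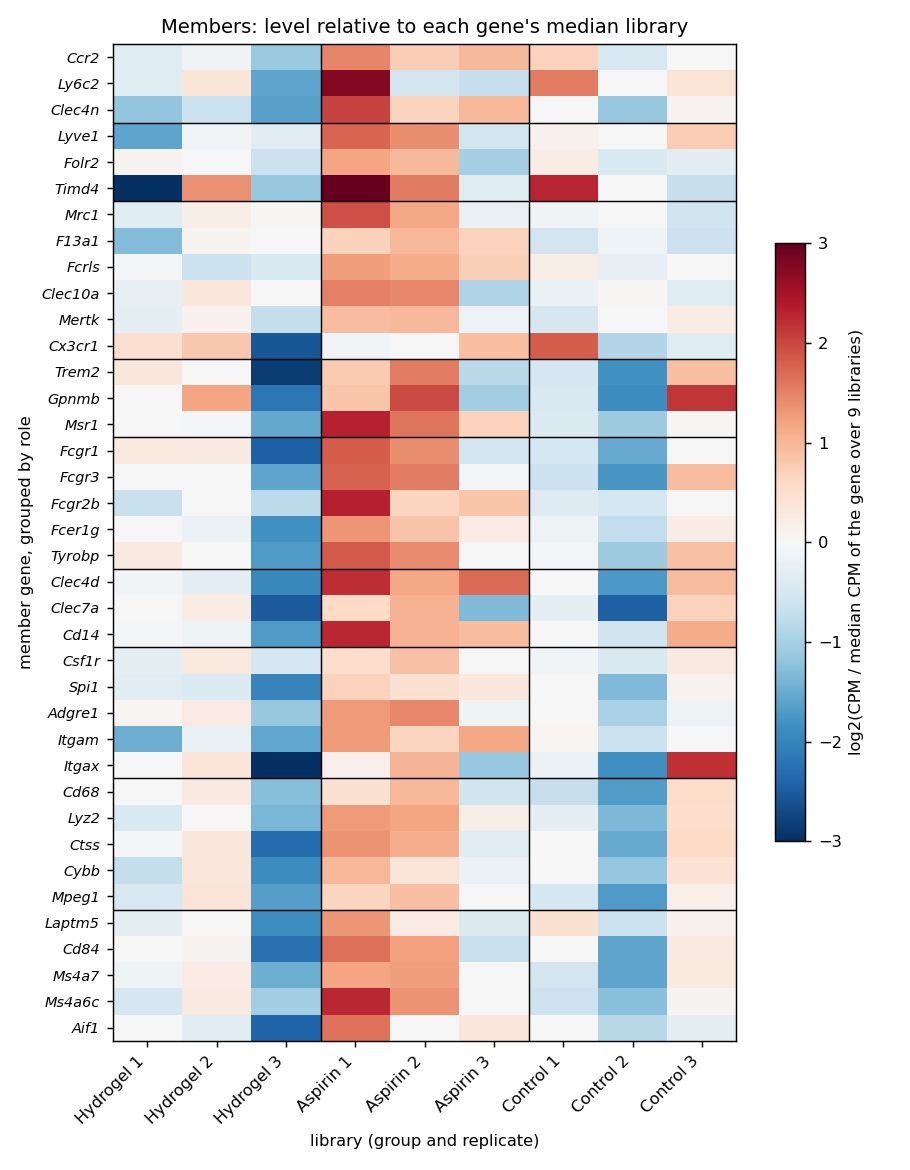
Level of each of the 38 marker genes (rows, grouped by role) in each of the 9 libraries (columns), as the log2 of its CPM over the median of that gene across libraries, with the colour scale ending at 3 and -3. Aspirin 1 and Aspirin 2 are high for most genes, and Hydrogel 3 and Control 2 are low.

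The effect of the drug alone was read from Aspirin against Control muscle. Levels lay higher in Aspirin muscle for 36 of the 38 markers, with a median log2 fold change of 1.07, where 54% of all 18259 genes lay higher, 46% lower, and their median was 0.046. 21 markers lay above a log2 fold change of 1 and 0 below -1, against 7.51% and 5.19% of all genes. The scavenger receptor Msr1 was at the top with 2.08 ± 0.53 (SE). Cx3cr1, at -0.35 ± 0.89, and the integrin gene Itgax, at -0.66 ± 1.09, were the 2 that lay lower. By edgeR's quasi-likelihood test 0% of all genes had an adjusted p under 0.05, and the markers' adjusted p by edgeR ran from 0.747 to 0.974. At an unadjusted p under 0.05 by edgeR, 13 markers were higher and 0 lower, against 3.09% and 3.39% of all genes. Every Aspirin library lay above every Control library for 10 markers, against 5.54% of all genes, and below it for 0, against 5.43%. DESeq2 called 3 of them (0.559% of all genes), Fcrls, Msr1 and Fcgr2b. Without Aspirin 1 the median was 0.75 and 33 of 38 lay higher. The number under an unadjusted 0.05 was then 7; it was 8 without Control 2 and 21 without Aspirin 3. Markers of other cell types were mixed in this comparison. Dendritic cell genes lay higher for 4 and lower for 4 (median 0.044), and lymphocyte genes for 9 and 4 (0.13). Some other lists lay wholly to 1 side. Neutrophil genes lay higher for 9 of 9 tested (median 1.66, and 0.25 with 7 higher without Aspirin 1). Blood endothelium genes lay lower for 8 of 8 (median -0.89, 7 at an unadjusted p under 0.05 by edgeR) and adipocyte genes lower for 6 of 6 (median -1.37). Erythroid genes lay lower for 6 of 6 (median -0.24), and muscle fibre genes for 11 of 12 (-0.22). Their part in the marker values was not tested.

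The combination of hydrogel and aspirin was read from Hydrogel against Control muscle. Levels lay lower in Hydrogel muscle for 27 of the 38 markers and higher for 11, with a median log2 fold change of -0.27 (52.9% of all genes lower, 47.1% higher, median -0.030). The values lie between -1.25 ± 1.10 for Itgax and 0.35 ± 0.76 for the IgG receptor gene Fcgr1. 0% of all genes were called by edgeR, the markers' adjusted p by edgeR was 0.987 to 0.999, and 0 markers had an unadjusted p under 0.05 (1.74% of all genes higher, 2.18% lower). DESeq2 called 0 markers and 0.0986% of all genes. Only for Lyve1 did the groups not overlap, where 6.28% of all genes separated downwards and 6.88% upwards. 3 markers, Ly6c2, Timd4 and Itgax, lay below a log2 fold change of -1 and 0 above 1, against 6.96% and 3.24% of all genes. Itgax changed sign without Control 3 and Timd4 without Control 1, while Ly6c2 kept its sign in both cases. The median lay at 0.037 without Control 3, with 22 markers higher, at -0.014 without Hydrogel 3, and at -0.66 without Control 2. It was -0.45 without Hydrogel 1 and -0.51 without Hydrogel 2. Scaled by library size alone, 33 markers lay lower. Among other cell types, neutrophil genes lay lower for 9 of 9 tested (median -2.05) and lymphocyte genes for 12 of 13 (-1.17). Erythroid genes were lower for 6 of 6 (-2.28), while muscle fibre genes were higher for 8 of 12 (0.32). Osteoclast genes were lower for 6 of 6 (-1.52), adipocyte genes for 6 of 6 (-0.76) and blood endothelium genes for 7 of 8 (-0.42). Their part in the marker values was not tested.

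Hydrogel with aspirin was also set against aspirin alone, to ask what the hydrogel adds. All 38 markers lay lower in Hydrogel muscle, with a median log2 fold change of -1.29 (53.3% of all genes lower, 46.7% higher, median -0.053). The lectin gene Clec4n was at the bottom with -2.45 ± 0.48. 27 markers lay below a log2 fold change of -1 and 0 above 1, against 13.3% and 5.15% of all genes. No gene passed in edgeR (0% of all genes), with an adjusted p by edgeR of 0.453 to 0.933 for the markers. 19 markers were lower at an unadjusted p under 0.05, against 7.61% of all genes, and 0 higher, against 3.32%. Every Hydrogel library lay below every Aspirin library for 12 markers, against 8.73% of all genes, and above it for 0, against 7.49%. DESeq2 called 6 (0.854% of all genes), namely Ccr2, Clec4n, Fcrls, Msr1, Fcgr2b and Itgam. Without Aspirin 1 and Hydrogel 3 together, left out after their levels were seen, the median was -0.65, 36 of 38 lay lower and 7 had an unadjusted p under 0.05. That number was 9 without Aspirin 1 alone and 11 without Hydrogel 3 alone. Neutrophil genes lay lower for 9 of 9 tested (median -3.23, and -2.27 without Aspirin 1) and erythroid genes for 6 of 6 (-2.09). Muscle fibre genes lay higher for 12 of 12 (0.69, and 0.21 with 10 higher without Aspirin 1) and adipocyte genes for 6 of 6 (0.86); their part in the marker values was not tested. The comparisons share libraries (Control in 2 of them, Aspirin in 2, Hydrogel in 2), so their values are not independent of each other.

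**Figure D2:**
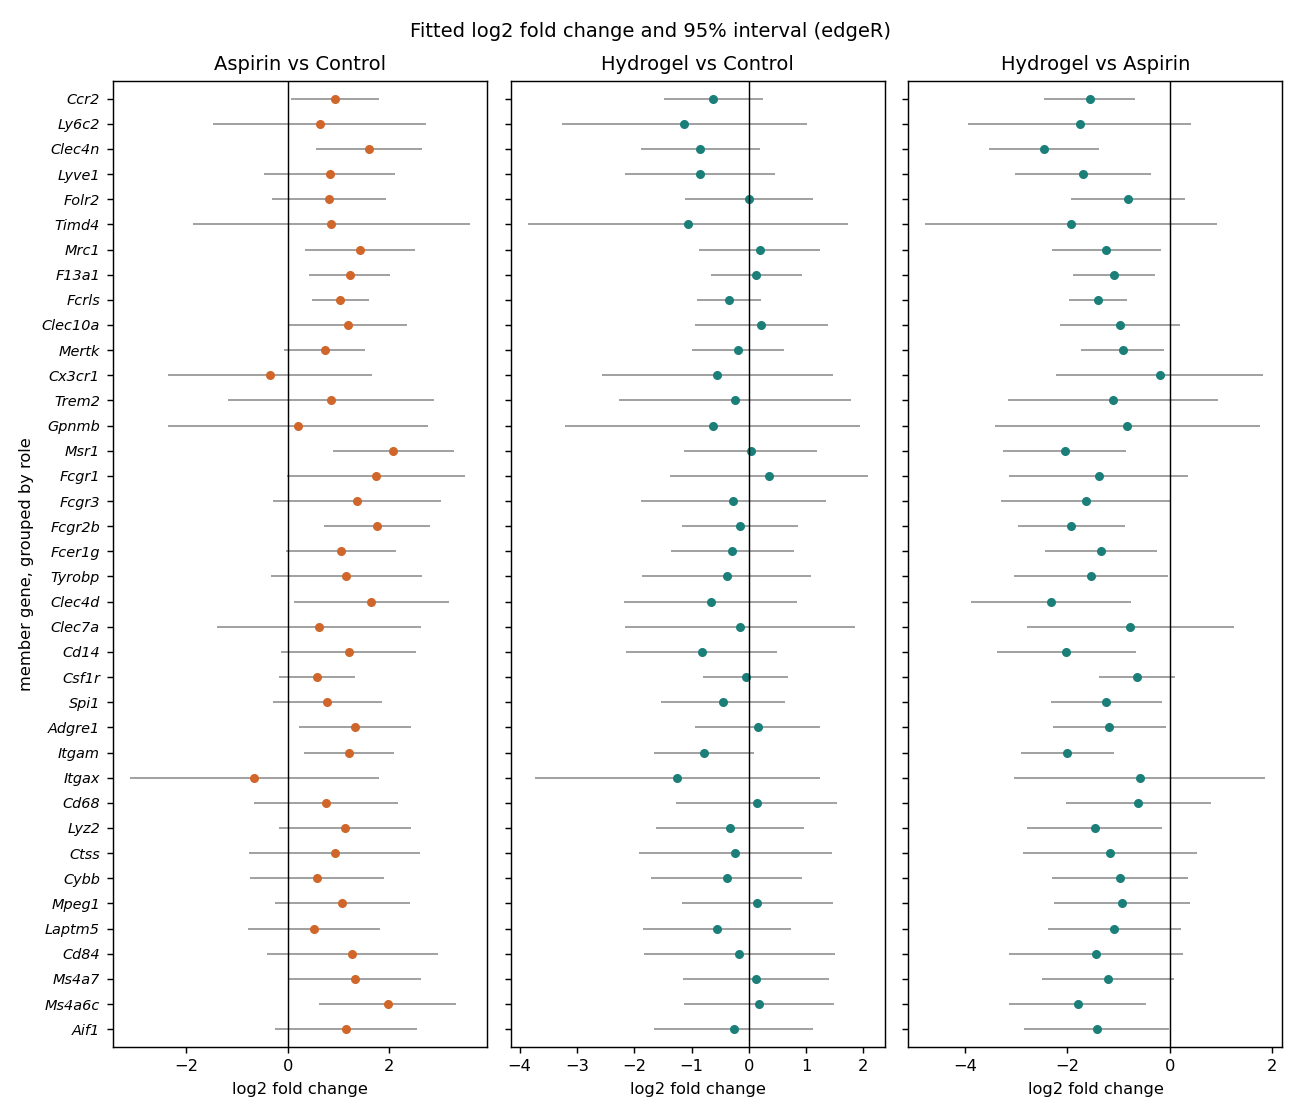
Fitted log2 fold change with its 95% interval (x axis) of each marker (y axis, by role) in each of the 3 comparisons. For Hydrogel against Aspirin all 38 points lie below 0, and for Aspirin against Control 36 lie above 0.

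Infiltrating monocytes were read from Ccr2, Ly6c2 and Clec4n. Ccr2 (ENSMUSG00000049103, chr9:124101950-124113557, plus strand; coordinates are those of GENCODE on mm10) encodes the receptor that draws monocytes into injured tissue. It stood at 5.85, 6.95 and 3.44 CPM in Hydrogel libraries, 20.8, 12.5 and 14.8 CPM in Aspirin libraries and 12.1, 5.38 and 7.47 CPM in Control libraries. Each Aspirin library lay above each library of the other groups, and Hydrogel and Control libraries overlapped. The log2 fold change was -1.56 ± 0.39 for Hydrogel against Aspirin, with a 95% interval of -2.45 to -0.68 and an adjusted p of 0.453 by edgeR and 0.0298 by DESeq2. It was 0.94 ± 0.38 for Aspirin against Control and -0.62 ± 0.38 for Hydrogel against Control.

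Clec4n (ENSMUSG00000023349, chr6:123229843-123247021, plus strand) encodes Dectin-2, a receptor for fungal mannans that signals through Fcer1g. It stood at 4.35, 6.31 and 3.20 CPM in Hydrogel libraries, 40.3, 15.7 and 19.9 CPM in Aspirin libraries and 9.94, 4.49 and 10.6 CPM in Control libraries, again with Aspirin above both other groups. Its group levels were 4.62 ± 1.57 CPM in Hydrogel muscle, 25.3 ± 13.2 CPM in Aspirin muscle and 8.33 ± 3.34 CPM in Control muscle (mean ± SD, n = 3 each). The log2 fold change for Hydrogel against Aspirin had a 95% interval of -3.54 to -1.37 and an adjusted p of 0.453 by edgeR and 0.000929 by DESeq2. For Aspirin against Control it was 1.61 ± 0.46, and for Hydrogel against Control -0.85 ± 0.46.

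Ly6c2 (ENSMUSG00000022584, chr15:75108158-75111970, minus strand) encodes a surface antigen of the classical, inflammatory monocytes of mice. It stood at 2.78, 4.62 and 1.20 CPM in Hydrogel libraries, 24.4, 2.46 and 2.23 CPM in Aspirin libraries and 10.4, 3.59 and 4.77 CPM in Control libraries. Unlike the other 2 genes, it was high in Aspirin 1 alone among the Aspirin libraries, and Aspirin 2 and Aspirin 3 lay below every Control library. Its log2 fold change for Aspirin against Control was 0.63 ± 0.93, and -1.44 without Aspirin 1. For Hydrogel against Aspirin it was -1.76 ± 0.96, and 0.29 without Aspirin 1. T, NK and B lymphocyte markers, 13 genes, summed to 67.1, 140 and 9.84 CPM in Hydrogel libraries, 1056, 13.7 and 8.34 CPM in Aspirin libraries and 412, 82.5 and 23.1 CPM in Control libraries. They were highest in Aspirin 1 and Control 1, the 2 libraries highest for Ly6c2; their part in the result was not tested. Counts of Ly6c2 are uncertain, since 33% of its 50-base windows are shared with other genes, nearly all with Ly6c1, which stood at 33.6 to 94.5 CPM.

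Resident macrophages were read from Lyve1, Folr2 and Timd4. Lyve1 (ENSMUSG00000030787, chr7:110850607-110863239, minus strand) encodes a hyaluronan receptor of perivascular macrophages and of lymphatic endothelium. It stood at 2.68, 7.58 and 6.44 CPM in Hydrogel libraries, 26.9, 21.1 and 5.48 CPM in Aspirin libraries and 8.72, 7.99 and 13.5 CPM in Control libraries. Hydrogel libraries lay below each Control library, by a margin of 7.58 in Hydrogel 2 against 7.99 CPM in Control 2, while Aspirin 3 lay among the Hydrogel libraries and Aspirin 1 and Aspirin 2 above all others. Fitted log2 fold changes were -0.86 ± 0.58 for Hydrogel against Control (unadjusted p = 0.172, adjusted p = 0.987 by edgeR) and -1.68 ± 0.59 for Hydrogel against Aspirin. 6 lymphatic endothelium markers summed to 33.7, 90.6 and 41.6 CPM in Hydrogel libraries, 159, 43.5 and 49.7 CPM in Aspirin libraries and 106, 54.3 and 89.4 CPM in Control libraries, with none at 0; their part in the Lyve1 values was not tested.

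Folr2 (ENSMUSG00000032725, chr7:101839988-101857194, minus strand), the macrophage folate receptor, stood at 18.6, 17.5 and 11.1 CPM in Hydrogel libraries, 39.6, 34.3 and 8.77 CPM in Aspirin libraries and 20.4, 12.7 and 13.9 CPM in Control libraries. Aspirin 1 and Aspirin 2 were the highest of the 9 and Aspirin 3 the lowest. The log2 fold change for Hydrogel against Control was 0.0026 ± 0.49, with a 95% interval of -1.11 to 1.12. An antisense gene, Gm10602, overlaps 63.1% of the exonic bases of Folr2 and averaged 2.35 CPM, so its reads could not be told apart if counting ignored strand. Timd4 (ENSMUSG00000055546, chr11:46810800-46844332, plus strand), a phosphatidylserine receptor with which resident macrophages bind dying cells, had the lowest level per length of the 38. It stood at 0.0484, 1.33 and 0.234 CPM in Hydrogel libraries, 4.17, 1.52 and 0.400 CPM in Aspirin libraries and 2.51, 0.513 and 0.320 CPM in Control libraries, with 2 counts in Hydrogel 1, below the limit of 3. Its 95% intervals spanned 0 in all 3 comparisons, and its log2 fold change for Aspirin against Control was 0.86 with Aspirin 1 and -0.24 without it.

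**Figure D3:**
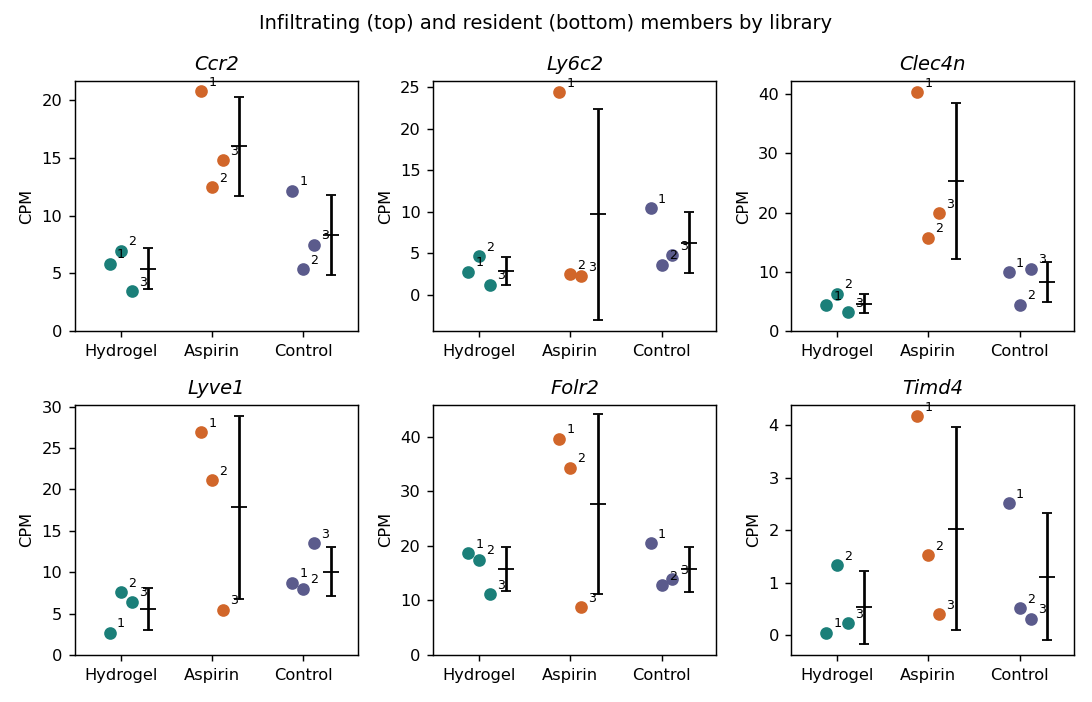
CPM on a linear scale (y axis) of the infiltrating genes Ccr2, Ly6c2 and Clec4n and the resident genes Lyve1, Folr2 and Timd4 in each library, with digits for the replicate and black bars for the mean ± SD of 3 libraries, Hydrogel left, Aspirin centre, Control right. Ccr2 and Clec4n lie higher in every Aspirin library than in any other, and for the other 4 genes at least 1 Aspirin library falls among or below the rest.

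To compare the 2 kinds of marker within a library, the mean log2(CPM + 0.5) of the 3 resident genes was subtracted from that of the 3 infiltrating genes. This log2 ratio was 0.53, -0.010 and -0.42 in Hydrogel libraries, 0.69, -0.43 and 1.36 in Aspirin libraries, and 0.44, 0.026 and 0.50 in Control libraries. The 3 groups overlapped. The difference of means was 0.22 for Aspirin minus Control, -0.29 for Hydrogel minus Control and -0.51 for Hydrogel minus Aspirin, against SDs of 0.48 among Hydrogel, 0.91 among Aspirin and 0.26 among Control libraries. Without Aspirin 3 the first difference was -0.19. Infiltrating and resident genes were therefore not separated by treatment beyond the spread between mice.

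The same genes were then set against 3 general macrophage genes, Csf1r, Adgre1 and Cd68, a ratio chosen after the values were seen. The infiltrating genes stood at -3.77, -3.66 and -3.56 relative to the general genes (log2) in Hydrogel libraries, -2.01, -4.07 and -2.58 in Aspirin libraries and -2.30, -2.74 and -3.33 in Control libraries. Hydrogel libraries lay below each Control library, with a difference of means of -0.87, and within the range of Aspirin libraries. Of the 3 infiltrating genes taken singly, Ly6c2 and Clec4n lay lower in Hydrogel than in Control muscle without overlap. Ccr2 overlapped, at -3.435 to -3.127 in Hydrogel and -3.285 to -2.140 in Control libraries. Counts of Ly6c2 are uncertain, as given above. Resident genes relative to the general ones stood at -4.30, -3.65 and -3.14 in Hydrogel libraries, -2.70, -3.64 and -3.94 in Aspirin libraries and -2.74, -2.76 and -3.83 in Control libraries, and all groups overlapped. Among the other 35 markers taken one by one on this ratio, Hydrogel lay below Control without overlap for 5, Ly6c2, Clec4n, Cd14, Itgam and Laptm5, where 2.72% of all genes did. Neutrophil and lymphocyte genes were also lower in Hydrogel than in Control muscle (median log2 fold changes -2.05 and -1.17). Their part in these ratios was not tested. Hydrogel lay below Aspirin for 8 (0.257% of all genes) and above it for 0 (6.48%). The 8 were Clec4n, Msr1, Fcgr3, Clec4d, Itgam, Lyz2, Ms4a7 and Ms4a6c, without Ccr2 and Ly6c2. Aspirin lay above Control for Msr1, Ms4a7 and Ms4a6c (0.0712% of all genes) and below it for 0 (8.57%). Itgam was among the 8 by -2.00 in Hydrogel 2 against -1.98 in Aspirin 2. The 3 general genes were lower in Hydrogel than in Aspirin muscle (difference of means -0.79) and higher in Aspirin than in Control muscle (0.89). Dividing by them shifts genes that did not move with them the other way. The shares of all genes are therefore no fair background for the markers in these 2 comparisons.

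**Figure D4:**
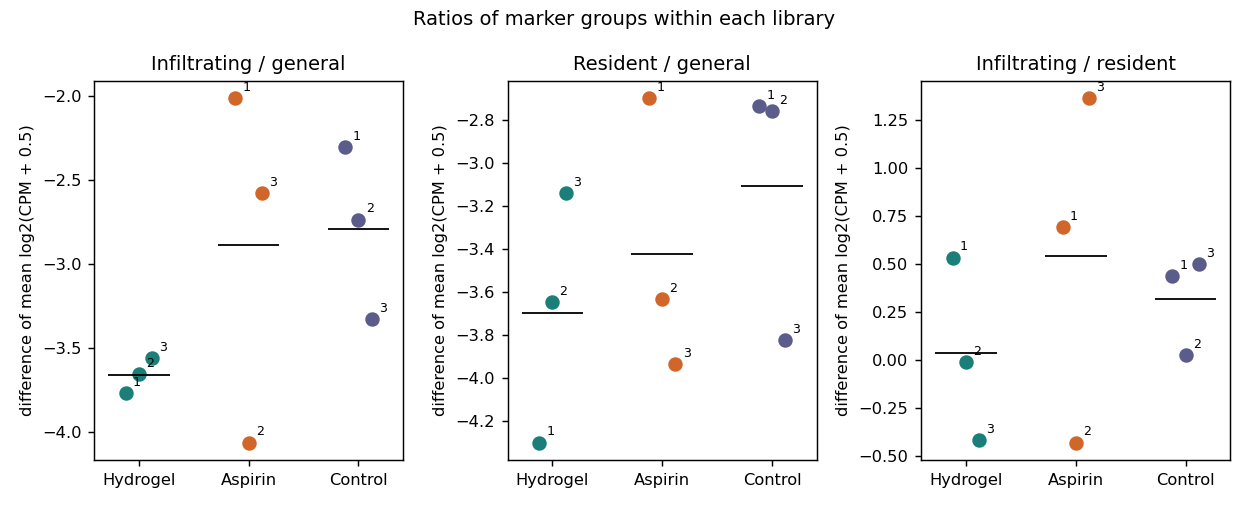
Log2 ratios within each library (y axis) of infiltrating to resident, infiltrating to general and resident to general genes, as differences of mean log2(CPM + 0.5), with digits for the replicate and a line for the mean of 3 libraries, Hydrogel left, Aspirin centre, Control right. The infiltrating to general ratio of the 3 Hydrogel libraries lies between -3.77 and -3.56, below the 3 Control libraries, and the other ratios overlap between groups.

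Other genes of resident or repair-type macrophages were also mostly higher in Aspirin muscle. Of 6, 5 lay higher for Aspirin against Control (median log2 fold change 1.11, and 0.85 without Aspirin 1) and all 6 lower for Hydrogel against Aspirin (-1.03, and -0.71 without Aspirin 1). Mrc1, the mannose receptor CD206, stood at 53.9, 78.7 and 70.2 CPM in Hydrogel libraries, 263, 155 and 58.8 CPM in Aspirin libraries and 63.5, 68.8 and 45.2 CPM in Control libraries. Aspirin 3 lay within the range of both other groups, and the log2 fold change for Aspirin against Control was 1.43 ± 0.48, and 0.84 without Aspirin 1. F13a1, the A chain of clotting factor XIII, behaved more evenly, at 25.8, 67.0 and 63.4 CPM in Hydrogel libraries, 103, 127 and 103 CPM in Aspirin libraries and 43.0, 58.9 and 40.6 CPM in Control libraries, with each Aspirin library above all others. Its log2 fold change was 1.22 ± 0.35 for Aspirin against Control and -1.09 ± 0.35 for Hydrogel against Aspirin.

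Fcrls, an Fc receptor-like scavenger receptor of macrophages and microglia, had the smallest unadjusted p of the markers in both of these comparisons. It stood at 9.96, 6.59 and 7.47 CPM in Hydrogel libraries, 24.2, 22.0 and 16.8 CPM in Aspirin libraries and 11.8, 8.64 and 10.2 CPM in Control libraries, with Aspirin above all others. Fcrls had a log2 fold change of 1.04 ± 0.25 for Aspirin against Control (adjusted p = 0.747 by edgeR, 0.0321 by DESeq2) and -1.39 ± 0.25 for Hydrogel against Aspirin (adjusted p = 0.453 by edgeR). The lectin gene Clec10a and Mertk, a receptor for dying cells, had 1.19 ± 0.52 and 0.73 ± 0.36 for Aspirin against Control. Cx3cr1, the fractalkine receptor of patrolling monocytes and some resident macrophages, stood at 0.267 to 5.51 CPM, and its log2 fold change for Aspirin against Control was 0.94 without Control 1.

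Macrophages that take up lipid and debris were read from Trem2, Gpnmb and Msr1. Msr1, a scavenger receptor for modified lipoproteins (ENSMUSG00000025044, chr8:39581685-39642673, minus strand), stood at 9.19, 8.91 and 3.17 CPM in Hydrogel libraries, 45.2, 27.9 and 14.8 CPM in Aspirin libraries and 6.97, 4.38 and 9.42 CPM in Control libraries. Every Aspirin library was above every other library, and Hydrogel and Control overlapped. Its adjusted p for Aspirin against Control was 0.753 by edgeR and 0.0277 by DESeq2, and its log2 fold change for Hydrogel against Aspirin was -2.05 ± 0.53.

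Trem2, a lipid receptor that signals through Tyrobp, did not follow Msr1. It stood at 35.3, 27.7 and 3.84 CPM in Hydrogel libraries, 47.8, 79.6 and 15.7 CPM in Aspirin libraries and 19.5, 7.81 and 52.0 CPM in Control libraries, which overlap. Gpnmb, a glycoprotein of lipid-laden macrophages and of osteoclasts, stood at 115, 264 and 25.6 CPM in Hydrogel libraries, 205, 456 and 56.2 CPM in Aspirin libraries and 84.5, 31.4 and 509 CPM in Control libraries. The highest library was Control 3, and the log2 fold change of Gpnmb for Hydrogel against Control was -0.63 with it and 1.20 without it. In Control 3 the 6 osteoclast markers summed to 556 CPM, against 34.3 to 306 CPM in the other 8 libraries, with Acp5 at 176 and Ctsk at 320.3 CPM; their part in the Gpnmb and Itgax values was not tested.

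Fc receptors for IgG and the ITAM adaptors lay higher in Aspirin than in Control muscle for all 5 genes (median log2 fold change 1.37), and lower in Hydrogel than in Aspirin muscle for all 5 (-1.54). Fcgr2b, the inhibitory IgG receptor of macrophages and B cells, stood at 22.8, 36.3 and 20.9 CPM in Hydrogel libraries, 181, 56.8 and 64.6 CPM in Aspirin libraries and 27.8, 25.2 and 36.3 CPM in Control libraries. Aspirin lay above both other groups, with Aspirin 1 far above Aspirin 2 and Aspirin 3; without Aspirin 1 the log2 fold change was 1.02 for Aspirin against Control and -1.18 for Hydrogel against Aspirin. The lymphocyte sum given above was also highest in Aspirin 1; its part in the Fcgr2b values was not tested. Fcgr2b had a log2 fold change of 1.76 ± 0.46 for Aspirin against Control (adjusted p = 0.753 by edgeR, 0.0450 by DESeq2) and -1.92 ± 0.46 for Hydrogel against Aspirin (adjusted p = 0.453 by edgeR, 0.0153 by DESeq2).

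The adaptor gene Fcer1g was separated in the same way, with log2 fold changes of 1.06 ± 0.48 for Aspirin against Control and -1.35 ± 0.48 for Hydrogel against Aspirin. Tyrobp, the adaptor also called DAP12, had 1.15 ± 0.66 and overlapped for Aspirin against Control. The activating receptors Fcgr1 and Fcgr3 had 1.74 ± 0.78 and 1.37 ± 0.73 in that comparison. Counts of Fcgr3 share 12.8% of their 50-base windows with Fcgr2b, so reads could pass between the 2 receptors.

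Of the pattern receptors, Clec4d, a lectin that pairs with Fcer1g, stood at 5.73, 5.08 and 1.60 CPM in Hydrogel libraries, 28.5, 13.5 and 19.8 CPM in Aspirin libraries and 6.08, 1.83 and 11.8 CPM in Control libraries. The co-receptor for bacterial lipopolysaccharide, Cd14, stood at 8.68, 8.22 and 2.80 CPM in Hydrogel libraries, 43.7, 18.8 and 17.6 CPM in Aspirin libraries and 9.11, 6.01 and 19.8 CPM in Control libraries. Hydrogel and Aspirin libraries did not overlap for either gene, with Hydrogel lower and log2 fold changes of -2.31 ± 0.69 and -2.02 ± 0.60. Aspirin libraries also lay above all Control libraries for Clec4d, and overlapped them for Cd14. Neutrophils express both genes too. 12 neutrophil markers summed to 36.5, 17.2 and 9.27 CPM in Hydrogel libraries, 401, 17.3 and 164 CPM in Aspirin libraries and 117, 21.4 and 70.8 CPM in Control libraries, high in Aspirin 1 and Aspirin 3 and not in Aspirin 2; their part in these values was not tested. Clec7a, the beta-glucan receptor Dectin-1, overlapped between all groups, with 0.62 ± 0.89 for Aspirin against Control and -0.77 ± 0.89 for Hydrogel against Aspirin.

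Of the genes that define the lineage, Itgam, the integrin CD11b of monocytes, macrophages and neutrophils (ENSMUSG00000030786, chr7:128062640-128118491, plus strand), was the one with the smallest unadjusted p for Hydrogel against Aspirin. It stood at 8.24, 19.6 and 7.77 CPM in Hydrogel libraries, 55.0, 35.8 and 51.1 CPM in Aspirin libraries and 23.7, 14.5 and 22.9 CPM in Control libraries. Aspirin lay above both other groups, and Hydrogel 2 lay within the Control range. Itgam had a log2 fold change of -2.00 ± 0.40 for Hydrogel against Aspirin (adjusted p = 0.453 by edgeR, 0.00211 by DESeq2), 1.21 ± 0.39 for Aspirin against Control and -0.78 ± 0.39 for Hydrogel against Control. A second row of the table carries the symbol Itgam (ENSMUSG00000108596, Gm49368 in the annotation). It overlaps 68.7% of the exonic bases of Itgam on the same strand and held 7.25 CPM in Hydrogel 1 and 2.91 CPM in Aspirin 1. With both rows summed, Hydrogel libraries stood at 15.5, 19.6 and 7.77 CPM and the log2 fold changes were -1.76, 1.25 and -0.51 in the same order.

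Csf1r, the receptor for the growth factor that keeps macrophages alive, stood at 79.4, 118 and 67.0 CPM in Hydrogel libraries, 138, 176 and 95.2 CPM in Aspirin libraries and 89.2, 69.6 and 116 CPM in Control libraries. All groups overlapped, and the log2 fold change for Hydrogel against Control was -0.057 ± 0.33. Adgre1, the macrophage antigen F4/80, stood at 44.1, 50.5 and 19.5 CPM in Hydrogel libraries, 103, 116 and 39.1 CPM in Aspirin libraries and 42.6, 21.8 and 38.1 CPM in Control libraries, with Aspirin 3 among the Control values. The integrin gene Itgax, or CD11c, stood at 15.8, 20.5 and 1.50 CPM in Hydrogel libraries, 17.5, 32.1 and 7.20 CPM in Aspirin libraries and 13.9, 4.42 and 71.7 CPM in Control libraries, with Control 3 far above the rest and the 3 groups overlapping. Its log2 fold change for Aspirin against Control was 1.04 without Control 3.

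Spi1 encodes PU.1, the transcription factor that sets up the monocyte and macrophage programme. It stood at 15.1, 14.1 and 4.67 CPM in Hydrogel libraries, 30.2, 25.9 and 23.5 CPM in Aspirin libraries and 18.7, 7.48 and 20.1 CPM in Control libraries. Aspirin libraries, 23.5 to 30.2 CPM, lay above all others, and the log2 fold change was 0.78 ± 0.48 for Aspirin against Control and -1.23 ± 0.48 for Hydrogel against Aspirin. PU.1 binds purine-rich sites around the letters GAGGAA, known as the PU box, so the 250 bases before the start of each marker were searched for GAGGAA or its reverse complement TTCCTC. Of 29 markers found in the RefSeq promoter table (GRCm38.p6), 14 held at least 1 in any of their windows, or 48.3%, against 25.9% of 27025 genes. Counted by window, it was 48.6% of 35 against 23.3% of 32851. 3 promoters that hold the box are printed, 1 each of a lineage, an infiltrating and a lipid-associated gene, while Itgax, Ccr2 and Gpnmb of the same roles held none. They are shown with each PU box in capitals, 5′ to 3′ on the strand of the gene.
Itgam, chr7:128062390-128062639, plus strand: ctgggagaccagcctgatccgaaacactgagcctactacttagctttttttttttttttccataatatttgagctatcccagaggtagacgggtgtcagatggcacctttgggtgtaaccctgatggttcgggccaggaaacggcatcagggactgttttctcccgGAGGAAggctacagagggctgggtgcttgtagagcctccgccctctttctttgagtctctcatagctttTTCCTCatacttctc
Ly6c2, chr15:75111972-75112221, minus strand: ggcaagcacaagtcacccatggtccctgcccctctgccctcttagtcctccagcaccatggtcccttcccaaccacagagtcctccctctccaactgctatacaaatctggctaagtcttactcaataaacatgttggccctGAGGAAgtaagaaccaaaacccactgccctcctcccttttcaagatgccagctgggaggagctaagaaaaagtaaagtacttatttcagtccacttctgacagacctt
Trem2, chr17:48346151-48346400, plus strand: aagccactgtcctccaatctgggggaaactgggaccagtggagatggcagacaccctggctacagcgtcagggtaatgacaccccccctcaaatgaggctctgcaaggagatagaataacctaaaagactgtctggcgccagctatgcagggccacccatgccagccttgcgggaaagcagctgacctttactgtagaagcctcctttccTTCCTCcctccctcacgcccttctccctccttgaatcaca

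Itgam holds 2 PU boxes, 84 and 15 bases before the start, the Ly6c2 window 1 at 108 bases (a second, overlapping window of Ly6c2, not printed, holds 2, at 142 and 8 bases) and the Trem2 window 1 at 40 bases. The 3 genes had log2 fold changes of -2.00, -1.76 and -1.10 for Hydrogel against Aspirin, and of these only Itgam had groups that did not overlap. A match of letters is a description and not a binding site. The longer core GAGGAAGT was present in 5.71% of the marker windows, both of Ly6c2, against 2.44% of all windows. Counted by gene it was 3.45% of 29, against 2.79% of all genes.

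Lysosomal, oxidase and killing genes were higher in Aspirin than in Control muscle for all 5 (median log2 fold change 0.92) and lower in Hydrogel than in Aspirin muscle for all 5 (-0.97). Lyz2, lysozyme, was the most abundant marker per length, with a median over the 9 libraries of 455.6 FPKM (fragments scaled to gene length and library size, as deposited). It stood at 482, 661 and 254 CPM in Hydrogel libraries, 1595, 1501 and 751 CPM in Aspirin libraries and 544, 259 and 957 CPM in Control libraries. Each Hydrogel library lay below each Aspirin library, with a log2 fold change of -1.46 ± 0.58, and Hydrogel and Control overlapped. Cd68, a lysosomal membrane protein, stood at 71.4, 86.3 and 29.7 CPM in Hydrogel libraries, 98.1, 142 and 47.0 CPM in Aspirin libraries and 44.2, 22.2 and 104 CPM in Control libraries, with all groups overlapping. The protease gene Ctss had 0.92 ± 0.75 for Aspirin against Control, the pore-forming protein gene Mpeg1 1.08 ± 0.59, and Cybb, the catalytic subunit of the phagocyte oxidase, 0.59 ± 0.58.

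The 5 other leukocyte genes were all higher in Aspirin than in Control muscle (median log2 fold change 1.27, and 0.80 with 4 higher without Aspirin 1) and all lower in Hydrogel than in Aspirin muscle (-1.42, and -0.98 without it). Ms4a6c, a membrane protein gene of monocytes and macrophages, stood at 9.40, 16.2 and 6.51 CPM in Hydrogel libraries, 63.8, 34.0 and 13.4 CPM in Aspirin libraries and 8.67, 5.58 and 14.2 CPM in Control libraries, with a log2 fold change of 1.97 ± 0.60 for Aspirin against Control, and 1.32 without Aspirin 1. Aspirin 3 lay below Hydrogel 2 and Control 3, so the groups overlapped. The gene BE692007 overlaps 53.1% of its exonic bases on the opposite strand and averaged 8.2 CPM. Laptm5, a lysosomal protein of most leukocytes, stood at 89.0, 108 and 29.7 CPM in Hydrogel libraries, 270.2, 127 and 79.7 CPM in Aspirin libraries and 147, 69.3 and 117 CPM in Control libraries, with Aspirin 1 and Control 1 the highest. Its log2 fold change for Aspirin against Control was 0.52, and -0.12 without Aspirin 1. Cd84, Ms4a7 and Aif1 had -1.44 ± 0.75, -1.20 ± 0.57 and -1.42 ± 0.62 for Hydrogel against Aspirin.

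Per length, the markers spanned from Lyz2 down to Timd4, at a median of 0.198 FPKM. Ctss at 148 FPKM, Tyrobp at 49.7 and Cd68 at 49.3 followed Lyz2, and Tyrobp and Cd68 did not differ beyond their spread over libraries of 9.21 to 251 and 14.9 to 114 FPKM. Of the infiltrating genes, Clec4n at 6.02 FPKM ranked 19 of 38, Ly6c2 at 1.11 ranked 35 and Ccr2 at 0.905 ranked 36. Of the resident genes, Folr2 stood at 9.97 FPKM, and Lyve1 at 2.31 ranked 33. The 5 genes whose log2 CPM followed Ccr2 most closely over the 9 libraries, among 14569 genes averaging at least 1 CPM, were Efemp2 (Pearson r of 0.980), Rpl13-ps6 and Ripor3 (0.970 each), Arrb2 (0.969) and Rab32 (0.968). For Lyve1 they were Nsg1 (0.968), Tomm5 (0.955), Fgl2 (0.946), Wdr73 (0.943) and Rhebl1 (0.940). All points share their library and its depth. Of the 100 genes closest to each, 2 were markers for Ccr2 and 0 for Lyve1.

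Genes around the markers in the same pathways were read from 6 further lists. Of 23 ITAM signalling and oxidase genes, which carry the signals of the receptors above, 22 lay higher in Aspirin than in Control muscle (median log2 fold change 1.00) and 23 lower in Hydrogel than in Aspirin muscle (-1.53). The first of these rested on 1 library, with 13 of 23 higher and a median of 0.082 without Aspirin 1, and the second median was then -0.62. Syk, the kinase that ITAMs recruit, stood at 25.3, 46.6 and 17.9 CPM in Hydrogel libraries, 293, 68.7 and 39.4 CPM in Aspirin libraries and 59.8, 31.8 and 29.7 CPM in Control libraries, high in Aspirin 1 alone. Its log2 fold change for Hydrogel against Aspirin was -2.17, and -0.85 without Aspirin 1. Of 12 other monocyte genes, 11 lay lower in Hydrogel than in Aspirin muscle (median -1.06), and 6 without Aspirin 1 (-0.24). Chil3, a chitinase-like protein of monocytes and macrophages, had -3.48 ± 1.06 in that comparison. It stood at 1.62, 0.363 and 0.167 CPM in Hydrogel libraries, 15.8, 1.31 and 7.31 CPM in Aspirin libraries and 4.26, 1.45 and 4.65 CPM in Control libraries. Aspirin 2 lay among the Hydrogel values. The neutrophil sum given above was likewise high in Aspirin 1 and Aspirin 3 and not in Aspirin 2. Its part in the Chil3 values was not tested.

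Of 19 other genes of resident or alternatively activated macrophages, 15 lay higher in Aspirin than in Control muscle (median 0.70, and 0.68 without Aspirin 1). Arg1, which encodes an arginase and marks alternative activation in mice, stood at 0.387, 0.151 and 0.0667 CPM in Hydrogel libraries, 24.8, 4.71 and 23.6 CPM in Aspirin libraries and 0.867, 0.156 and 0.407 CPM in Control libraries, with each Aspirin library above all others. Its fitted log2 fold change was -6.39 ± 0.98 for Hydrogel against Aspirin, with an adjusted p of 0.453 by edgeR and 2.64e-10 by DESeq2. For Aspirin against Control it was 5.19, with an adjusted p by DESeq2 of 3.92e-07. Without Aspirin 1 these fold changes were -6.06 and 4.85. Arg1 in Hydrogel 3 lay below the limit of 3 counts, which is 0.1001 CPM in that library. The size of its fold change for Hydrogel against Aspirin is therefore uncertain. The platelet factor gene Pf4, also made by resident macrophages, had -1.63 ± 0.40 for Hydrogel against Aspirin and 1.22 ± 0.39 for Aspirin against Control. Stab1, a scavenger receptor, had 0.71 ± 0.25 for Aspirin against Control. Of 20 phagocytosis and lipid-handling genes tested of 21, 18 lay lower in Hydrogel than in Aspirin muscle (median -0.74, and -0.64 without Aspirin 1), including Plin2, which coats lipid droplets, at -1.84 ± 0.50.

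Growth factors and transcription factors act upstream of these genes. Of 5 growth factor genes and receptors tested of 7, 4 lay lower in Hydrogel than in Aspirin muscle (median -0.78, and -0.83 without Aspirin 1), and Csf1, the ligand of Csf1r, had -0.63 ± 0.23. Of 12 transcription factor genes other than Spi1, 6 lay lower and 6 higher (median -0.013, and 0.17 with 7 higher without Aspirin 1). Among them Runx1, a regulator of blood cell development, had -1.03 ± 0.35, and Nr4a1, which is needed for patrolling monocytes and is also an immediate early gene of other cells, had 1.37 ± 0.45. For Hydrogel against Control, 21 of the 23 ITAM and oxidase genes lay lower (median -0.53), and 12 without Control 1 (-0.036). Of the phagocytosis and lipid-handling genes 16 of 20 lay lower (median -0.48), and 11 without Control 3 (-0.076). None of the genes of the 6 lists was past the threshold in edgeR, while DESeq2 called Arg1, Pf4, Chil3 and Plin2 for Hydrogel against Aspirin and Arg1 and Nr4a1 for Aspirin against Control. By edgeR, of all genes, 564 higher and 619 lower had an unadjusted p under 0.05 for Aspirin against Control, 318 and 398 for Hydrogel against Control, and 606 and 1390 for Hydrogel against Aspirin.

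**Figure D5:**
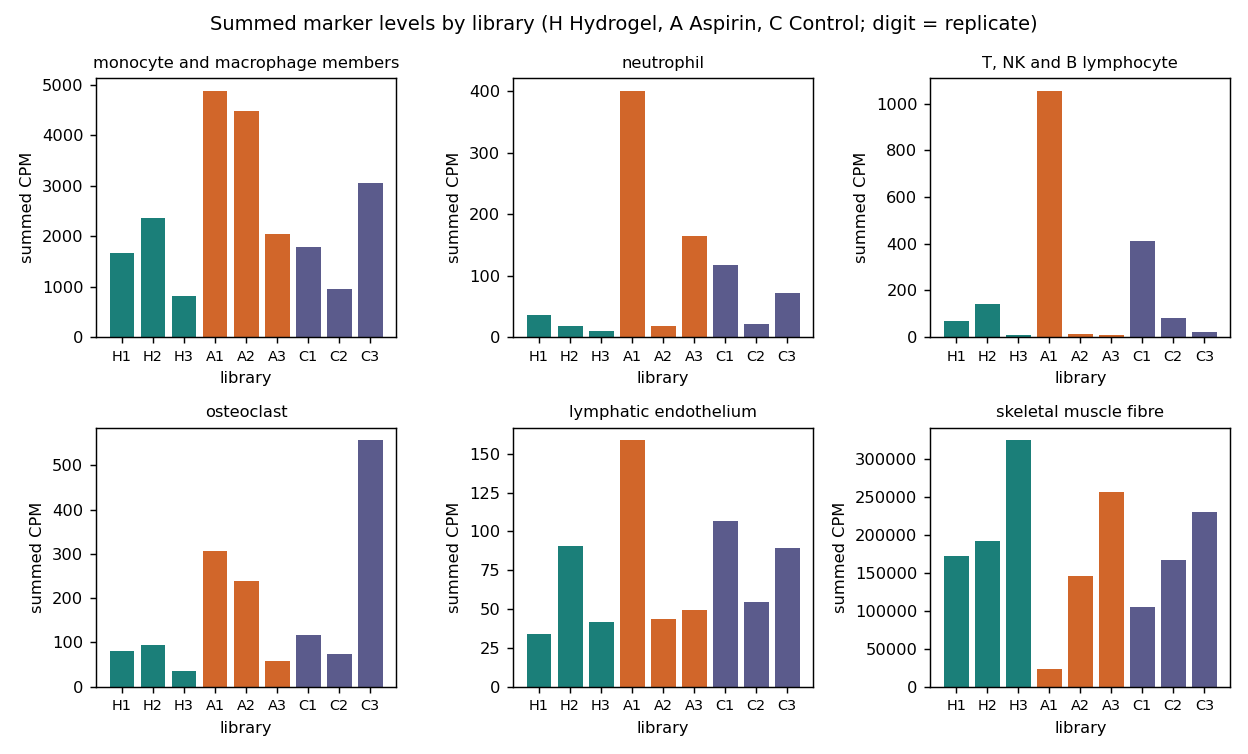
Summed CPM on a linear scale from 0 (y axis) of the 38 markers and of marker lists of 5 other cell types, with 1 bar per library, Hydrogel left, Aspirin centre, Control right. Lymphocyte genes are highest in Aspirin 1 and Control 1, osteoclast genes in Control 3, and muscle fibre genes are lowest in Aspirin 1.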

How the data were processed

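Per the labels' protocols, a SMARTER mRNA kit made the libraries. The authors deposited whole-number counts per gene, which were not normalised, and FPKM values of each gene in each library (fragments scaled to gene length and library size). The submitters' processing notes name mm10 as the genome build; the sources used here do not give the aligner, counting tool or strand setting. Groups and replicate numbers came from the labels. P-values set a difference between groups against the spread between mice, which the fits estimated with information shared across genes.

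Counts of all 9 libraries were fitted in 1 model with group as its only term by edgeR 4.0.16 in R 4.3.3 (robust quasi-likelihood test, TMM scaling, filterByExpr with a minimum count of 10 and total of 15). P-values were adjusted by Benjamini-Hochberg over 18259 genes with a threshold of 0.05. DESeq2 1.42.0 was an alternative. CPM values are counts over TMM-scaled library sizes, and FPKM was used to compare genes. The script was tested on simulated data. The common biological coefficient of variation was 0.503. No 2 libraries agreed within sampling noise (smallest chi-square per degree of freedom 77.8).

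The members and lists were chosen with earlier results of these data known, so lists are described by counts and medians. Named with the level in every library were the infiltrating, resident and general markers, Mrc1, Trem2 and Gpnmb and up to 5 further markers of smallest unadjusted p per comparison; the other markers were given by role with fold changes, and other lists by genes among their 3 of smallest unadjusted p. Levels of Acp5, Ctsk and Ly6c1 were added after values were seen. Coordinates are 1-based, from GENCODE on mm10, and promoters from RefSeq on GRCm38.p6. Of 39 rows with a marker's symbol, the second Itgam row failed the filter. Alternatives were other scaling, no filter, DESeq2, the replicate number as a block, pseudocounts, FPKM and leaving out libraries.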

Additional observations from a re-analysis of the deposited data

How the results depend on the processing

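DESeq2 called 102 genes for Aspirin against Control, 18 for Hydrogel against Control and 156 for Hydrogel against Aspirin, where edgeR called 0 in each; with RLE size factors, library size alone or no filter on low counts edgeR also called 0. Leaving out 1 library gave 0 to 0, 0 to 0 and 0 to 2 calls, the 2 without Aspirin 3. The median over the markers ran, leaving out 1 library, from 0.75 to 1.37 for Aspirin against Control, from -0.66 to 0.037 for Hydrogel against Control and from -1.64 to -1.001 for Hydrogel against Aspirin. Without Aspirin 1 and Hydrogel 3, an alternative added after the data were seen, these medians were 0.76, 0.010 and -0.65. The infiltrating minus resident difference ran from -0.19 to 0.71 for Aspirin minus Control, from -0.53 to -0.059 for Hydrogel minus Control and from -0.99 to -0.095 for Hydrogel minus Aspirin; it kept its sign with pseudocounts of 0.1 and 1 CPM, with FPKM and without Timd4 (also added after the data were seen). Scaling by library size alone gave marker medians of 1.39, -0.39 and -1.86, where it put the median of all genes at 0.27, -0.26 and -0.51; 33 markers were then lower for Hydrogel against Control. The cause of these differences was not tested.

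The replicate number as a block gave 1 call for Hydrogel against Aspirin, 0 in the other comparisons, and marker medians of 0.95, -0.44 and -1.24. Whether the numbers pair the mice could not be settled. Of 9 pairs with the same number, 7 had deviations correlated above 0.1 and 2 did not (range -0.34 to 0.54). 5 of 9 libraries correlated best with their own number, and the other libraries did not. With 3 mice a group and this spread, no difference of a single marker between Hydrogel and Control was detected by edgeR or DESeq2. That does not show that the levels were alike.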
